A study of Mus musculus with 7 samples.

Results

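Replication origins mapped in mouse embryonic stem cells that overexpressed CDC6 were compared with origins mapped in untreated stem cells. The comparison holds 4 of the 7 samples of the study, chosen by their labels as the CDC6 and the WT libraries. CDC6 1 and CDC6 2 came from TetO-CDC6 mESCs, a line derived from a mouse that carries a doxycycline-inducible CDC6 transgene, after 30 h with 1 µg/ml doxycycline. WT 2 came from the same TetO-CDC6 cells with no treatment and thus without doxycycline. WT 1 came from mESCs labelled WT in genotype and not labelled as TetO-CDC6, was described as submitted earlier, and had no treatment. The other 3 samples were 2 libraries of TetO-CDC6 cells given 0.5 µM aphidicolin for 2.5 h (APH) and 1 Input. The labels do not say that the TetO-CDC6 line is 1 clone, nor that replicate libraries were grown apart, so p-values measure the spread between these libraries, which may be technical. Because no WT library received doxycycline, its effect and that of CDC6 cannot be told apart, and CDC6 induction and cell identity cannot be checked in lists of DNA peaks.

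CDC6 is an ATPase that joins the origin recognition complex (ORC) in the G1 phase and, with CDT1, loads the MCM helicase on DNA, a step called licensing. Far more helicases are loaded than are used in an S phase, and the unused ones form a reserve of dormant origins. Geminin, the product of Gmnn, blocks CDT1 after S phase has begun, and too much CDC6 or CDT1 is known to disturb this order. Short nascent strands are the small DNA pieces made where a fork has just started. Here they were isolated by size on a sucrose gradient, treated with λ-exonuclease, which digests DNA lacking a 5′ RNA primer, and sequenced.

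2 kinds of deposited list were used, on mm10. MACS peaks are the regions called in 1 library, each with a fold over a control and a −log10 q-value. Origins are the entries of the single list deposited for a condition, which carries no fold and no replicate error. The lists held 31384 CDC6 origins and 20178 WT origins on the autosomes and X. Peaks numbered 72384 in CDC6 1, 82071 in CDC6 2, 94747 in WT 1 and 81056 in WT 2. Read depth is unknown, since no file states it, and precision is limited by how many libraries and peaks there are. The folds are the authors' values against a control that the lists share, and no order between libraries is read from them. Peaks of CDC6 1 met one of CDC6 2 in 76.2% (67.5% the other way round), whereas peaks of WT 1 met a peak of WT 2 in 43.3% (51.4% the other way round), so each WT library is given on its own throughout. Chromosome 8 held 8.26% of the peaks of WT 1, against 5.26% in CDC6 1, 5.53% in CDC6 2 and 4.86% in WT 2.

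Promoters at which the origin covered at least some of the 250 bases before the start site are shown first, as 1 or 2 examples of each class of origin described below, whose promoters differ in their median CG. Each line gives the 250 bases before the RefSeq start site (GRCm38.p6), 5′ to 3′ on the strand of the gene, with every CG in capitals. Hbq1a (chr11:32299819-32300068, plus strand) and Rnase12 (chr14:51057243-51057492, minus strand) had a CDC6 origin and no WT peak. Arid1a (chr4:133756770-133757019, minus strand) had a CDC6 origin, no WT origin, but peaks in both WT libraries, and was picked after its values were seen. Erich6 (chr3:58637208-58637457, minus strand) had a WT origin and no CDC6 peak. Yy1 (chr12:108793047-108793296, plus strand) had an origin in both lists.
Hbq1a: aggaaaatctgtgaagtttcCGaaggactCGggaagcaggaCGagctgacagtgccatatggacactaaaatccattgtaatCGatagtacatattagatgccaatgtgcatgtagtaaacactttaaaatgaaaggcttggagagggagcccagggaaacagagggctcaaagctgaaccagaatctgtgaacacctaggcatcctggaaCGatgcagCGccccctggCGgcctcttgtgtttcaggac
Rnase12: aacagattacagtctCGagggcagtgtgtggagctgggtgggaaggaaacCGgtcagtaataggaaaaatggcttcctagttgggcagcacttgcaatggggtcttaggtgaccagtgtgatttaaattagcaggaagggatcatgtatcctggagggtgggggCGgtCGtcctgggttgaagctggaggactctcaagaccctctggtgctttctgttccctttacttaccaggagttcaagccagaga
Arid1a: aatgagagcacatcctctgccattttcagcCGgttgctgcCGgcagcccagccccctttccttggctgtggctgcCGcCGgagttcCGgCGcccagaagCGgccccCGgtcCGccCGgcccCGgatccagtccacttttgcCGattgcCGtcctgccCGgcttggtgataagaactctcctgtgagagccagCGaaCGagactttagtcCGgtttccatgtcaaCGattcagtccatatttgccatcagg
Erich6: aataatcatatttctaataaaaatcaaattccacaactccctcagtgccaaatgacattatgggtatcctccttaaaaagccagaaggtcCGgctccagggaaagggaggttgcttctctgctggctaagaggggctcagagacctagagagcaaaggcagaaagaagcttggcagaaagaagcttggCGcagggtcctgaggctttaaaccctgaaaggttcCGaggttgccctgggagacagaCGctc
Yy1: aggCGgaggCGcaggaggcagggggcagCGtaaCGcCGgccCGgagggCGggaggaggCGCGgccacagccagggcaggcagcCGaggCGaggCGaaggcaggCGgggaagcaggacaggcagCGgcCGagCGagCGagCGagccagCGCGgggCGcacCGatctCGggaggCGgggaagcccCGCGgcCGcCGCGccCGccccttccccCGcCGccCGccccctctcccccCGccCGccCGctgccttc
The sequences hold 7 CG at Hbq1a, 4 at Rnase12, 18 at Arid1a, 4 at Erich6 and 36 at Yy1. Their GC contents are 48.4%, 51.6%, 61.2%, 48.8% and 81.2%. A G-quadruplex motif, here 4 runs of at least 3 G on either strand with 1 to 7 bases between the runs, was found at Yy1 and not at the other 4. Yy1 encodes a zinc finger transcription factor, Arid1a a subunit of the SWI/SNF chromatin remodeller, Hbq1a a globin of the alpha cluster and Rnase12 a member of the ribonuclease A family. Arid1a had peaks 7.96-fold over the control in CDC6 1, 9.43-fold in CDC6 2, 7.63-fold in WT 1 and 2.19-fold in WT 2.

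The genes that the transgenic system might touch were read next. At the endogenous Cdc6 gene (chr11:98907709-98923942) neither list held an origin within the gene. CDC6 1 had 1 peak there, 2.65-fold over the control, and WT 1 had 1 peak at 3.30-fold, while CDC6 2 and WT 2 had none. Col1a1 (chr11:94936224-94953042), a collagen gene often used as a docking site for inducible transgenes, held 1 CDC6 origin (chr11:94941016-94941556) and no WT origin, although WT 1 had 3 peaks and WT 2 had 1. Gt(ROSA)26Sor, a broadly expressed locus used for transactivators, had an origin in both lists. The sources used here do not state which of these loci the line uses.

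CDC6 libraries did not hold more peaks than WT libraries. The mean was 77228 ± 6850 (SD, n = 2) in CDC6 and 87902 ± 9681 (SD, n = 2) in WT, a difference of -10674 peaks (exact permutation test, two-sided, p = 0.667; the 6 splits allow no p below 0.333). Both CDC6 libraries covered fewer bases than both WT libraries, 111 and 114 Mb against 152 and 135 Mb (exact permutation p = 0.333, the smallest possible, adjusted p = 1 over 7 measures). The other 6 measures overlapped between the groups. At a −log10 q-value of at least 5 the order of the means turned, with 19508 and 25484 peaks in CDC6 1 and CDC6 2 and 25098 and 13370 in WT 1 and WT 2. Here WT 1 lay with the CDC6 libraries and WT 2 below them. The origin lists differ in the other direction, 1.56 CDC6 origins for each WT origin. Peaks of replicate 1 that were also found in replicate 2 numbered 55170 in CDC6 and 41038 in WT. The sources used here do not state how libraries were joined into a list.

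Most origins listed in CDC6 alone were not free of signal in untreated cells. Of the CDC6 origins, 43.8% overlapped a WT origin by at least 1 bp (95% Wilson interval 43.3% to 44.3%, which covers counting error alone), and 17638 did not. Among these 17638, 7263 overlapped a peak in both WT libraries, 3370 in WT 1 alone, 4564 in WT 2 alone and 2441 in neither. Thus 7.78% of all CDC6 origins had no peak in any WT library. Of the WT origins, 68.6% overlapped a CDC6 origin (95% Wilson interval 67.9% to 69.2%). Of the 6344 that did not, 2630 overlapped a peak in both CDC6 libraries, 1717 in CDC6 1 alone, 560 in CDC6 2 alone and 1437 in neither. The share of all origins without any peak in the other condition was 7.12% for WT, close to that for CDC6.

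Whether an origin was listed in both conditions followed its strength. Each origin took the percentile, in order of −log10 q, of its strongest peak in each library of its own condition, and the mean of both was cut into quintiles. From the weakest to the strongest quintile, 21.1%, 27.5%, 36.1%, 55.1% and 79.1% of CDC6 origins met a WT origin. For WT origins the shares that met a CDC6 origin were 39.9%, 53.6%, 66.6%, 85.1% and 97.6%. MACS peaks of WT 1 met 99.2% of the strongest quintile of CDC6 origins and those of WT 2 met 99.1%, whereas in the weakest these shares were 53.2% and 64.5%. Nearly all of the strongest CDC6 origins were thus marked in untreated cells of either line.

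**Figure D1:**
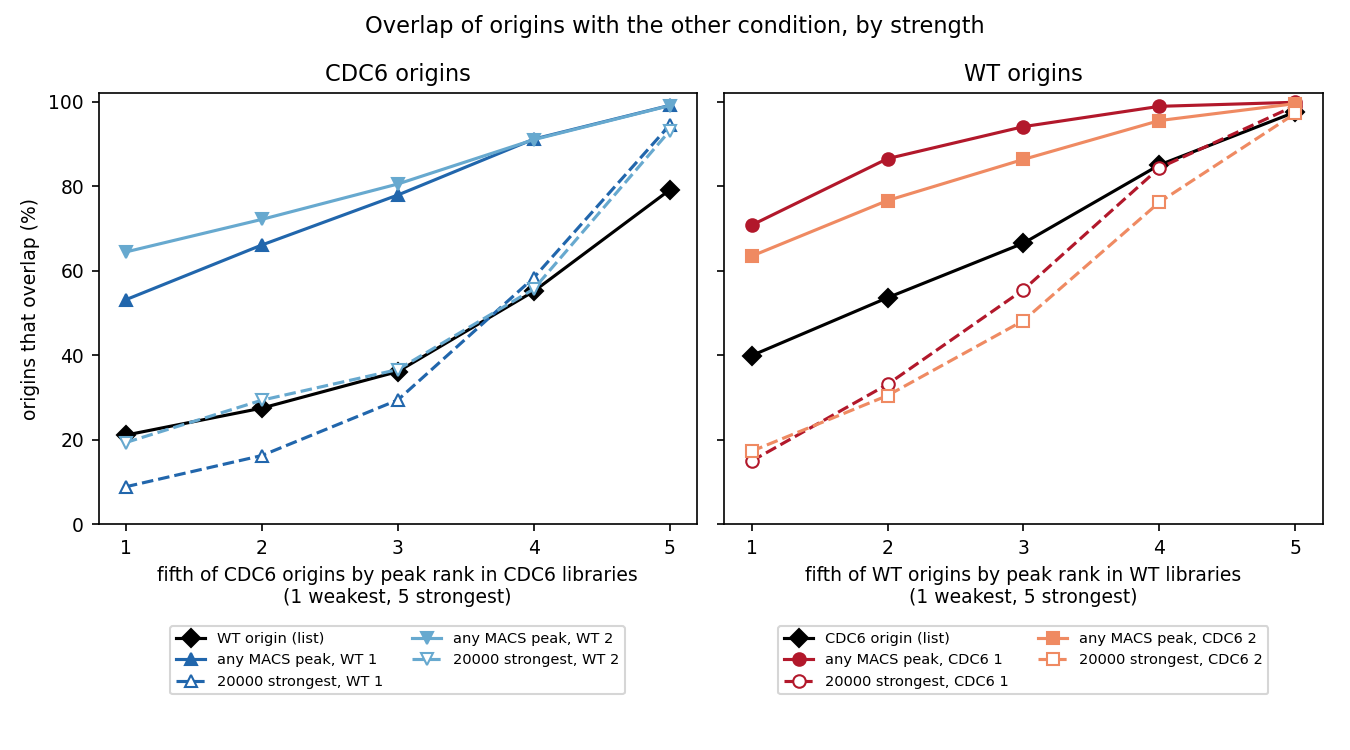
Share of CDC6 origins (left) and WT origins (right), in %, that overlap an origin list or the MACS peaks of the other condition, by quintile of strength from weakest (1) to strongest (5). Black diamonds are the list, filled symbols all peaks of 1 library and open symbols its 20000 strongest peaks. For CDC6 origins the list share climbs from 21.1% to 79.1%, while any peak of WT 1 climbs from 53.2% to 99.2%.

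Where an origin was shared, its borders were alike. In 13497 pairs that met each other and no other origin, the median width was 913 bp in CDC6 and 848 bp in WT, and the CDC6 origin was the wider one in 57.1%. The midpoints lay a median of 75.5 bp apart, and 168.5 bp apart at the upper quartile. CDC6 origins without a WT origin were narrower than those with one, with a median of 670 bp against 917.5 bp. Their nearest WT origin was a median of 40.8 kb away, 7.58% had one within 5 kb and 7.98% had none within 200 kb. WT origins without a CDC6 origin lay a median of 28.3 kb from the nearest CDC6 origin, and 1.83% had none within 200 kb. The CDC6 list is the longer one, and its part in this difference was not tested.

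Merging the peaks of the 4 libraries gave 159931 regions, which show what each WT library contributes. A peak in every library was found in 28611 regions, in both CDC6 libraries and neither WT library in 7192, and in both WT libraries and neither CDC6 library in 5924. Regions seen in 1 library alone numbered 34147 in WT 1, 23665 in WT 2, 15623 in CDC6 2 and 4885 in CDC6 1. With the 20000 strongest peaks of each library, the regions of both CDC6 libraries alone numbered 2249 and those of both WT libraries alone 731. The CDC6 libraries also met each other in more of their peaks (76.2% and 67.5%, by direction) than the WT libraries did (43.3% and 51.4%), and the part of this in the counts was not tested. Where both CDC6 libraries had a peak, the libraries that joined them marked different kinds of site. Regions shared with WT 1 alone (10172) lay at a gene end (the start or end of a protein-coding gene, with 1 kb on each side) in 24.1%, and regions shared with WT 2 alone (7798) in 2.62%. Regions of all 4 libraries did so in 32.6%, those of both CDC6 libraries alone in 5.28% and those of both WT libraries alone in 3.70%.

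**Figure D2:**
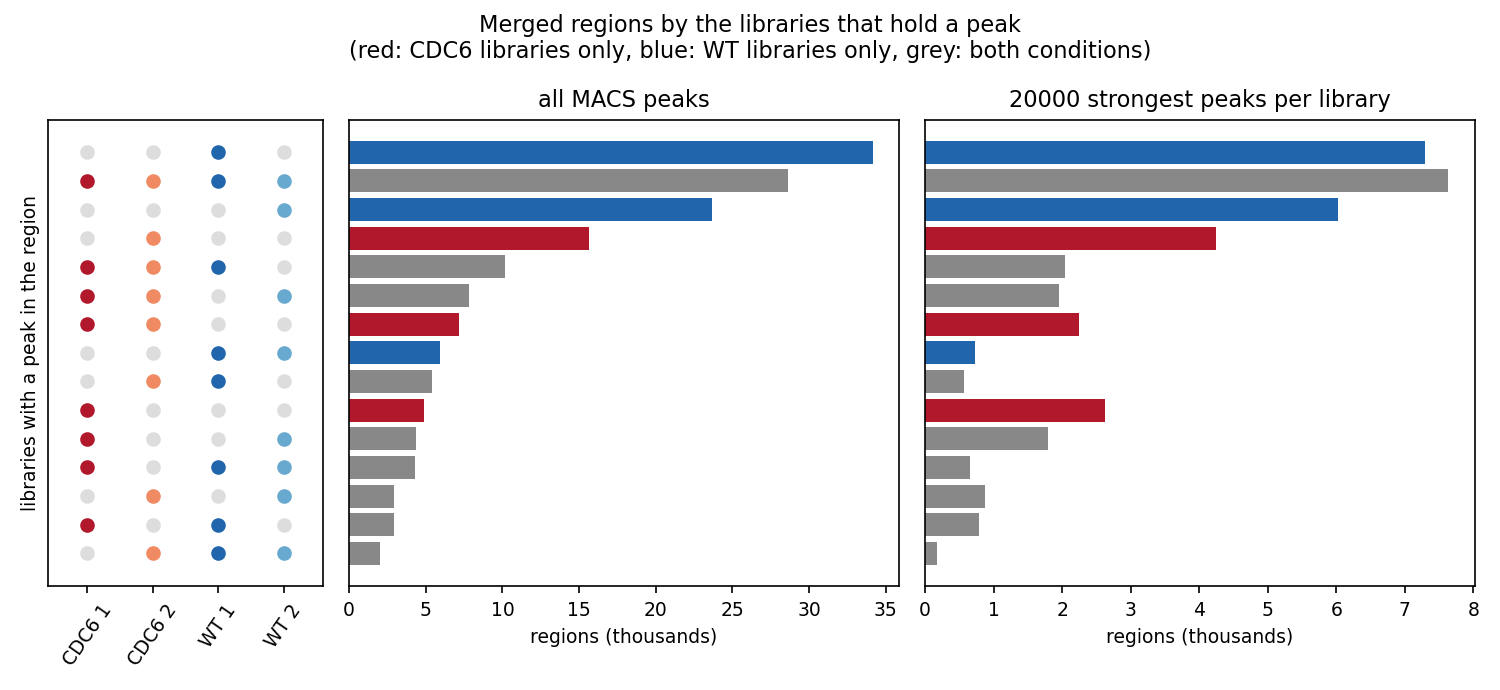
Number of merged regions for each combination of libraries with a peak, marked by the coloured dots on the left, for all MACS peaks (middle) and for the 20000 strongest peaks of each library (right). Red bars are regions of CDC6 libraries alone, blue of WT libraries alone and grey of both conditions. The bar of both CDC6 libraries alone stands at 7192 regions for all peaks and 2249 for the strongest.

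Among the 20000 strongest peaks, 70.2% of those of CDC6 1 met one of CDC6 2, and 46.2% of those of WT 1 met one of WT 2. Between conditions this share was 56.6% for CDC6 1 in WT 1, 60.6% for CDC6 1 in WT 2, 53.1% for CDC6 2 in WT 1 and 53.6% for CDC6 2 in WT 2. The WT libraries thus resembled each other less than either resembled a CDC6 library. What the shared control adds to these shares was not tested.

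Origins at gene ends were rarer in the CDC6 list than in the WT list, at 26.4% against 31.9%, a difference of -5.57 points. With as many CDC6 as WT origins, taken by highest first score, the direction turned, to 3.34 points. Single libraries did not keep this order. Of the 20000 strongest peaks, 39.7% in CDC6 1, 35.8% in CDC6 2, 41.3% in WT 1 and 26.5% in WT 2 lay at a gene end. The CDC6 libraries lay between the 2 WT libraries, with a mean of 37.8% ± 2.77 (SD, n = 2) against 33.9% ± 10.4 (SD, n = 2) (exact two-sided permutation p = 1). With the WT list replaced by as many of the strongest peaks of WT 2, the difference was -0.01 points, and with those of WT 1 it was -14.7 points. With the CDC6 list replaced in the same way, it was -4.43 points for CDC6 2 and -1.35 points for CDC6 1. These swaps set peaks against origins, which are unlike in width. The median was 1075 bp for all peaks of WT 1 and 1170 bp for those of WT 2, against 720 bp for WT origins. It was 1120 bp for all peaks of CDC6 1 and 1033 bp for those of CDC6 2, against 737 bp for CDC6 origins. What width adds to these differences was not tested. Gene bodies showed the same arrangement, with 67.8% and 64.3% of the strongest peaks of CDC6 1 and CDC6 2 inside protein-coding genes against 69.6% in WT 1 and 54.3% in WT 2. In each list, origins at gene ends were mainly the strong ones. In the CDC6 list their share was 6.90% in the weakest quintile and 57.1% in the strongest, and in the WT list 5.72% and 69.6%.

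Origins near start sites took the same position in all lists. Within 1 kb of the 15533 RefSeq start sites of the promoter table, which covers 19 of the 20 chromosomes used, lay 17.9% of CDC6 origins and 22.4% of WT origins. Of these, 77.3% in CDC6 and 74.0% in WT had their midpoint on the transcribed side. The median midpoint was 179 bp into the gene in CDC6 and 182 bp in WT. In single libraries it was 161 bp in CDC6 1, 174 bp in CDC6 2, 173 bp in WT 1 and 162 bp in WT 2, so the position overlapped between the conditions while the number of such peaks was lowest in WT 2.

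**Figure D3:**
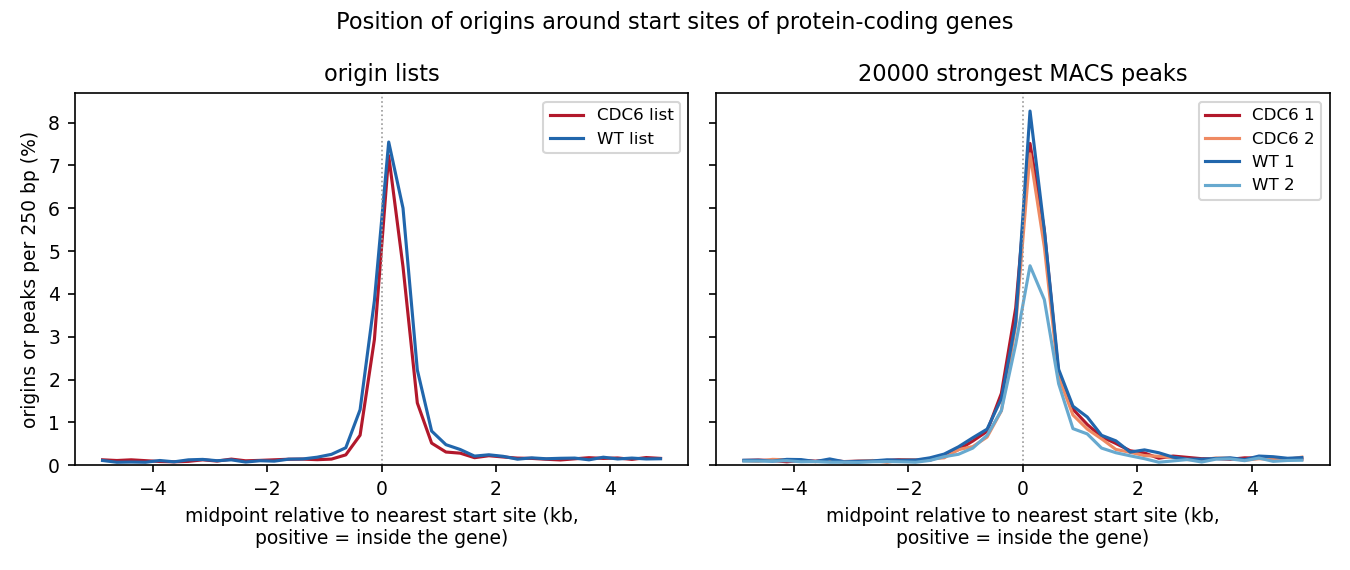
Midpoints of origins (left) and of the 20000 strongest MACS peaks of each library (right), in % per 250 bp, against the distance in kb from the nearest start site, with positive values inside the gene. Every curve peaks just inside the gene, and the curve of WT 2 is the lowest there, with 16.5% of its peaks within 1 kb against 21.3% to 23.8% in the other 3 libraries.

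Read gene by gene, the CDC6 list held an origin at a gene end where the WT list held none in 2246 of 21627 protein-coding genes (10.4%), and the reverse held in 421 (1.95%). Both lists had one at 6539 genes and neither at 12421. The CDC6 list is the longer one and there is 1 list a condition, so no test was made. Of the 2246 genes, 1427 had a peak in both WT libraries, 698 in WT 1 alone, 67 in WT 2 alone and 54 in neither. Of the 421 genes, 319 had peaks in both CDC6 libraries and 28 in neither. With the WT list replaced by the strongest peaks of WT 1, 1369 genes had a CDC6 origin alone and 1849 a WT origin alone, so the larger number changed sides, whereas with those of WT 2 the counts were 3300 and 488. With the strongest peaks of CDC6 1 in place of the CDC6 list they were 3552 and 234. Peaks had a larger median width than origins, and what this adds to the counts was not tested. One of the 20000 strongest peaks lay at a gene end in both CDC6 libraries and neither WT library at 492 genes (2.27%) and in both WT libraries and neither CDC6 library at 87 (0.402%). Of these peaks, 70.2% of CDC6 1 met one of CDC6 2, and 46.2% of WT 1 met one of WT 2. The part of this in the 2 counts was not tested.

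Among genes with a CDC6 origin alone and no WT peak within 1 kb of either end, the strongest were App, Rdh7, Ms4a6d, Casr, Tprkb, Pfas, Gm39701, Hbq1a, Nyx and Rnase12. They are named in order of the weaker of their ranks in the CDC6 libraries. WT peaks were sought in that window alone, and the App and Ms4a6d origins lie mostly outside it. App encodes the amyloid precursor protein. Its origin (chr16:85172668-85174311) lay inside the gene and only reached the window of the 5′ end. The peaks in that window were 4.10-fold over the control in CDC6 1 and 3.84-fold in CDC6 2. Casr, the calcium-sensing receptor gene, had an origin at its 5′ end (chr16:36561316-36561951), 3.91-fold and 4.05-fold over the control. Rdh7, a retinol dehydrogenase gene, had one at its 3′ end (chr10:127883785-127884423) with 4.39-fold and 3.88-fold. Tprkb, part of the KEOPS tRNA-modifying complex, carried its origin at the 3′ end, and Pfas, an enzyme of purine synthesis, at an end of unknown strand. At Hbq1a, whose promoter is printed above, the origin (chr11:32299995-32300574) stood at 3.51-fold and 3.30-fold. Nyx, a retinal proteoglycan gene on X, stood at 3.24-fold and 3.54-fold, and Rnase12 at 3.07-fold and 4.00-fold. These 10 are the strongest of the 54 such genes, from the percentile 91.8 at App to 77.4 at Rnase12, whereas all 2441 CDC6 origins without a WT peak had a mean percentile of 55.9.

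In the other direction, the strongest genes with a WT origin alone and no CDC6 peak in the same window were Mageb4, Mcee, Srpk2, Scn10a, Enox2, Tceal9, Erich6, Prp2, Rbbp5 and Gnpda2. The Gnpda2 and Scn10a origins lie mostly outside their windows. Mageb4, a MAGE family gene on X, had its origin at the 5′ end (chrX:86255306-86255875), 5.50-fold over the control in WT 1 and 3.73-fold in WT 2. Mcee, the methylmalonyl-CoA epimerase gene, had one at the 3′ end (chr7:64412266-64412845) at 3.70-fold and 2.92-fold. Srpk2 encodes a kinase of splicing factors and stood at 4.51-fold and 2.75-fold. Rbbp5, a subunit of the MLL histone methyltransferase complexes, had an origin at its 5′ end (chr1:132477144-132477581) with 2.87-fold and 2.61-fold. Mageb4, Enox2 and Tceal9 are on X, which held 2.01% of all WT origins and 2.51% of those without a CDC6 peak.

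Origins of highest rank in every library lay at Yy1, Ncoa2, Phyhipl, Dyrk1a, Celf1 and Rev1. At Yy1 the peaks were 12.0-fold over the control in CDC6 1, 12.4-fold in CDC6 2, 14.3-fold in WT 1 and 9.53-fold in WT 2. Phyhipl (chr10:70557686-70599291) had 10.0-fold, 8.66-fold, 12.1-fold and 7.20-fold in the same order, with an origin over its 5′ end in both lists. At Dyrk1a, a protein kinase gene, 2 origins were listed in each condition.

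Genes of the replication machinery itself were read for origins at their ends. Of 9 genes for licensing loaders and their inhibitor, Orc2 and Orc3 had an origin in both lists and 6 genes in neither. Gmnn had one in the CDC6 list alone (11.1%, against 10.4% of all genes). Gmnn had peaks in all libraries, 2.81-fold over the control in CDC6 1, 3.39-fold in CDC6 2, 3.41-fold in WT 1 and 2.31-fold in WT 2. The gene was thus marked in both conditions at MACS level. Of 9 MCM helicase genes, Mcm8, Mcmbp, Mcm3 and Mcm6 had an origin in both lists. Mcm5 had one in the CDC6 list alone (11.1%, against 10.4% of all genes). At Mcm5, on chromosome 8, peaks stood at 2.25-fold in CDC6 1, 2.55-fold in CDC6 2 and 2.90-fold in WT 1, with none in WT 2.

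Of 14 origin firing factor genes, 5 had an origin in both lists, 4 in CDC6 alone (28.6%, against 10.4% of all genes) and 1 in WT alone. The 4 were Topbp1 and Ticrr, which bring the firing kinase signal to the helicase, and Gins4 and Gins3, subunits of the GINS complex of the active helicase. Topbp1 had 3.68-fold in CDC6 1, 3.88-fold in CDC6 2, 3.6-fold in WT 1 and 2.2-fold in WT 2. Ticrr had 4.00-fold, 3.27-fold and 2.82-fold in the first 3 libraries and no peak in WT 2. WT 1 had a peak at all 4 genes and WT 2 at 3. Gins4 and Gins3 lie on chromosome 8. Mcm10, which helps to activate the helicase, had the WT origin, with peaks of 2.78-fold in WT 1, 3.14-fold in WT 2 and 2.52-fold in CDC6 1.

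Of 23 genes for replicative polymerases, clamp and primase, 7 had an origin in both lists. Pold4 and Rfc4 had one in CDC6 alone (8.70%, against 10.4% of all genes). Pold4, a small subunit of polymerase delta, had 3.06-fold in CDC6 1, 3.28-fold in CDC6 2, 2.22-fold in WT 1 and no peak in WT 2. All 13 ATR checkpoint genes kept the same status in the lists, with 7 in both and 6 in neither (0% in CDC6 alone, against 10.4% of all genes). Wee1, a kinase that restrains mitotic entry, stood at 6.81-fold, 6.17-fold, 5.91-fold and 5.10-fold in CDC6 1, CDC6 2, WT 1 and WT 2. Of 24 genes for cyclins, CDKs and E2F factors of the G1 to S passage, 18 had an origin in both lists. E2f4, Cdk4 and Ccna2 had one in CDC6 alone (12.5%, against 10.4% of all genes). Cdk4, the partner of D-type cyclins, had peaks in all libraries, at 4.29-fold in CDC6 1, 3.06-fold in CDC6 2, 5.40-fold in WT 1 and 2.25-fold in WT 2.

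Of 22 pluripotency factor genes, 11 had an origin in both lists, among them Sall4, Klf4 and Pou5f1. Fgf4 and Sox2 had one in CDC6 alone (9.09%, against 10.4% of all genes). Sox2 had peaks of 2.94-fold in CDC6 1, 2.80-fold in CDC6 2, 4.41-fold in WT 1 and 3.42-fold in WT 2. Its absence from the WT list is therefore not an absence of peaks. At Nanog neither list held an origin, and all 4 libraries had a peak, 2.12-fold in CDC6 1, 2.56-fold in CDC6 2, 3.08-fold in WT 1 and 2.2-fold in WT 2.

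Hox genes, the clustered regulators of the body axis, had 27 of 39 genes with a CDC6 origin and 20 with a WT origin. CDC6 alone held 8 genes (20.5%, against 10.4% of all genes), among them Hoxd10, Hoxc6 and Hoxb2, and WT alone held Hoxb8 (2.56%, against 1.95%). Hoxd10 had 5.02-fold in CDC6 1, 5.60-fold in CDC6 2 and 5.14-fold in WT 1, and no peak in WT 2. Neighbouring Hox genes can share a peak, so they are not independent. Counted by the 20000 strongest peaks, Hox genes were marked in 71.8% in CDC6 1, 66.7% in CDC6 2, 92.3% in WT 1 and 53.8% in WT 2. WT 1 was the highest library and WT 2 the lowest, with the CDC6 libraries between them. Both CDC6 libraries and neither WT library marked 0 of the 39 genes, against 2.27% of all genes.

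Among 60 other developmental transcription factor genes, 36 had an origin in both lists, 11 in CDC6 alone (18.3%, against 10.4% of all genes) and 0 in WT alone. Among the 11 were Gata2, Evx1, Lhx5, Tbx5 and Dlx5. Gata2, a factor of blood development, had 4.11-fold in CDC6 1, 4.01-fold in CDC6 2, 3.54-fold in WT 1 and 2.52-fold in WT 2. Lhx5, a LIM homeobox gene, had 3.15-fold, 3.68-fold and 2.65-fold and no peak in WT 2. By the 20000 strongest peaks, 76.7% and 71.7% of these genes were marked in the CDC6 libraries, 70.0% in WT 1 and 50.0% in WT 2. This was the 1 list of 11 in which WT 1 lay below both CDC6 libraries.

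2 lists of other kinds gave a frame for these counts. Of 32 mitochondrial ribosomal protein genes, which stand for housekeeping promoters, 11 had an origin in both lists. CDC6 alone held 0 (0%, against 10.4% of all genes) and WT alone 2, Mrpl21 and Mrpl1 (6.25%, against 1.95%). Of 20 genes known from common fragile sites, sites that tend to break when replication is slowed, 8 had an origin in both lists and 5 in CDC6 alone (25.0%, against 10.4% of all genes). Of the 5, WT 1 had a peak at 4 and WT 2 at 2. By the 20000 strongest peaks, 45.0% of the 20 genes were marked in CDC6 1, 40.0% in CDC6 2, 60.0% in WT 1 and 30.0% in WT 2. Both CDC6 libraries and neither WT library marked 1 of the 20 in this way, against 2.27% of all genes. The 5 with a CDC6 origin alone were Ctnna3, Wwox, Fhit, Immp2l and Dpyd, very long genes like the others of this list. Fhit had no WT peak at its ends, with 2.81-fold in CDC6 1 and 2.97-fold in CDC6 2. Immp2l had peaks of 3.09-fold in CDC6 1, 2.77-fold in CDC6 2 and 4.76-fold in WT 1 and none in WT 2.

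Over the 11 lists with 265 genes, 37 (14.0%) had an origin in CDC6 alone and 4 (1.51%) in WT alone, against 10.4% and 1.95% of all genes. Of the 37, WT 1 peaks marked 36 and WT 2 peaks 22. One of the 20000 strongest peaks in both CDC6 libraries and neither WT library marked 7 of the 265 genes (2.64%), close to the 2.27% of all genes. In 10 of the 11 lists WT 2 lay below both CDC6 libraries in the share of marked genes, and in 5 WT 1 lay above both. The same arrangement held over all protein-coding genes, of which 40.6% were marked in CDC6 1, 36.7% in CDC6 2, 42.6% in WT 1 and 27.5% in WT 2.

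**Figure D4:**
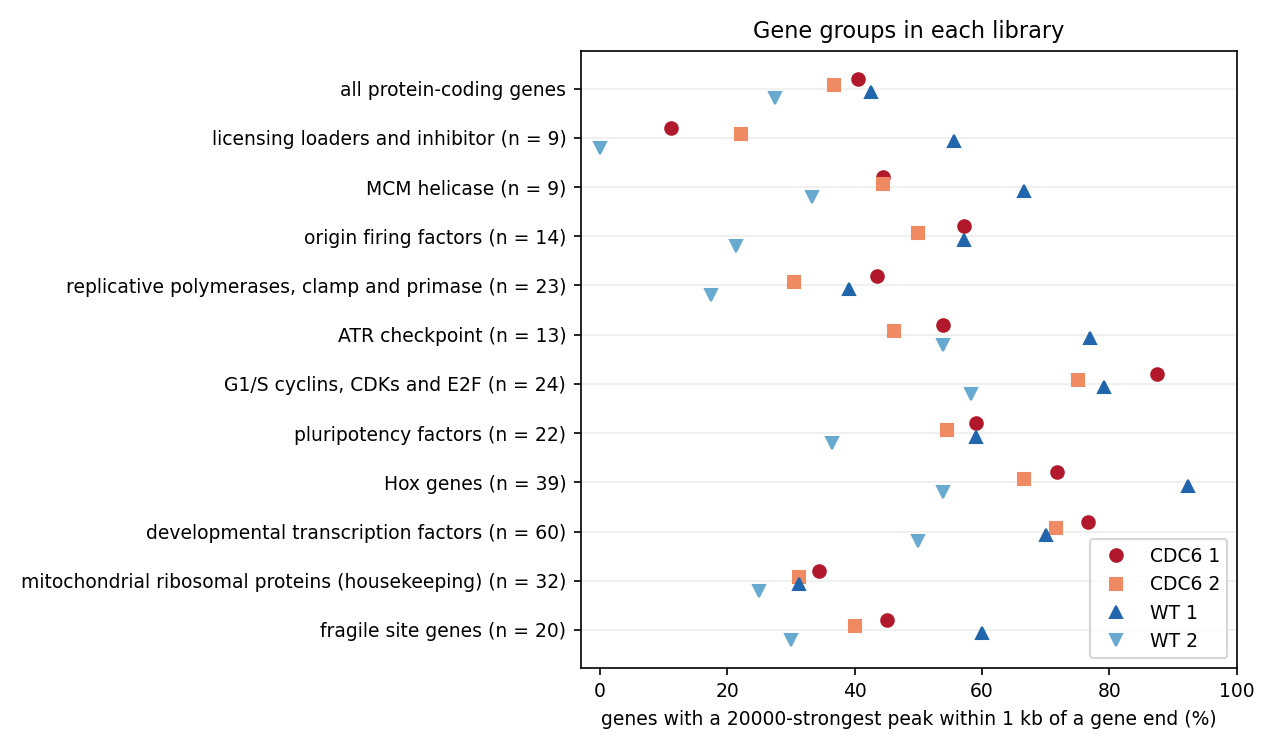
Share of genes (%) with one of the 20000 strongest peaks within 1 kb of a gene end, for all protein-coding genes and for each gene group, with 1 symbol per library. WT 2 lies to the left of both CDC6 libraries in 10 of 11 groups and WT 1 to the right of both in 5.

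Promoters of these classes differed in base composition, measured over 300 bp around 15533 RefSeq start sites (250 before and 50 after). The median was 14 CG and a GC content of 56.7% over all promoters. It was 26 CG and 65.7% GC at genes with an origin in both lists, 19 and 61.0% for CDC6 alone, 16 and 57.7% for WT alone, and 5 and 50.7% for neither. The G-quadruplex motif was present in 21.3% of all promoters, 37.2% of those with both origins, 26.7% for CDC6 alone, 21.5% for WT alone and 11.4% for neither. Runs of G make the motif more frequent where GC is high, so the measures are not independent. Genes with a CDC6 origin alone were not of 1 kind. Where both WT libraries had a peak (1028 promoters), the median was 20 CG, and where WT 1 alone had one (503) it was 18. Where WT 2 alone had a peak (51) it was 5, and where neither had one (40) it was 5.5, near that of genes without any origin. Promoters with one of the strongest peaks in WT 1 and none in WT 2 (2654) had a median of 21 CG, and those with the reverse (304) had 11.

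The density of peaks along chromosomes was compared in 1 Mb bins. Across 2545 bins, log2 peak numbers of the CDC6 libraries correlated with r = 0.92, and those of the WT libraries with r = 0.49. CDC6 1 correlated with WT 1 at 0.87 and with WT 2 at 0.63, and CDC6 2 at 0.83 and 0.62. These values describe bins that share gene content, mappability and 1 control, and carry no test. limma called 0 bins (0%) in CDC6 minus WT at an adjusted p under 0.05, with 48 at an unadjusted p under 0.05. Both CDC6 libraries lay above both WT libraries in 260 bins (10.2%) and below in 346 (13.6%). Without WT 1 limma called 773 bins (30.3%), 341 higher and 432 lower, and without WT 2 it called 292 (11.5%), 176 higher and 116 lower, where the lone WT library is assumed to vary like the other groups. These fits do not support each other: 70 bins were called in both, of which 11 had the same sign and 59 opposite signs. The difference between the WT libraries, a median of 0.57 on the log2 scale, enters the spread that the fit uses.

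Gene-poor and gene-rich bins showed how much rests on the WT library. Bins in which 0 or 1 protein-coding genes start held 14.5% of the peaks of CDC6 1, 16.7% of CDC6 2, 12.5% of WT 1 and 21.5% of WT 2. The CDC6 libraries lay between the WT values. Bins with 20 or more genes held 20.4%, 18.5%, 18.7% and 15.0% in the same order. In the gene-poor bins the median log2 difference was -0.03, with -0.47 against WT 2 alone and 0.36 against WT 1 alone. In bins with 20 or more genes it was 0.23, with 0.38 against WT 2 alone and 0.08 against WT 1 alone. In bins with 10 to 19 genes it was 0.08, with 0.23 and -0.05, and in bins with 2 to 9 genes -0.06, with -0.14 and -0.02. The sign thus turned with the WT library in bins of 0 or 1 and of 10 to 19 genes, and not in the other groups of bins.

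**Figure D5:**
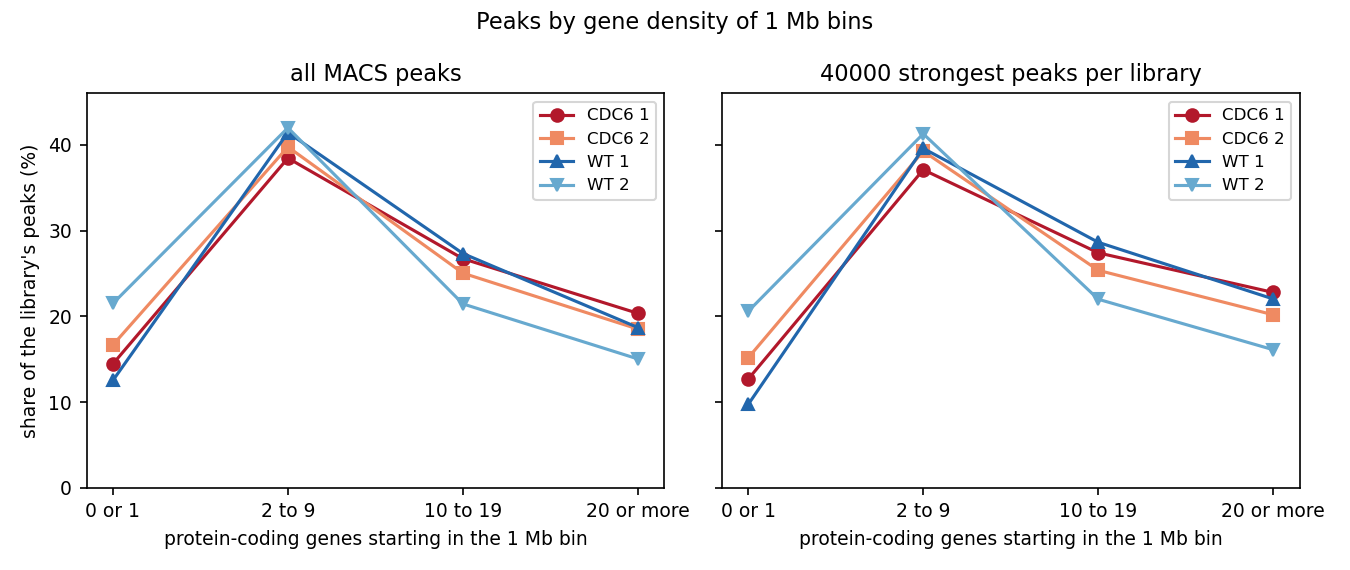
Share of the peaks of each library (%) in 1 Mb bins grouped by the number of protein-coding genes that start in them, for all MACS peaks (left) and the 40000 strongest of each library (right). In bins with 0 or 1 genes the CDC6 libraries, at 14.5% and 16.7% of all peaks, lie between WT 1 at 12.5% and WT 2 at 21.5%.

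The bin of smallest p lay on chromosome 13 (66000001 to 67000000). It held 23 peaks in CDC6 1, 28 in CDC6 2, 73 in WT 1 and 68 in WT 2, and 82 and 73 in the APH libraries. Both CDC6 libraries held fewer peaks here than the WT and APH libraries. The bin was chosen for its CDC6 minus WT difference, and the cause was not tested. The log2 difference was -1.26 ± 0.214 (SE; limma adjusted p = 0.731). It was -1.32 without WT 1 and -1.20 without WT 2. These refits reuse the libraries by which the bin was chosen, so they are no separate support. Its named genes include Uqcrb, a subunit of respiratory complex III, Mterf3 and Ptdss1, and Zfp640, a zinc finger gene.

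The 4 other bins with the smallest p and fewer peaks in CDC6 were all on chromosome 8, at 56000001, 73000001, 97000001 and 68000001. The first held 15 and 20 peaks in CDC6, 52 in WT 1, 32 in WT 2 and 25 and 23 in APH, with a log2 difference of -1.01. WT 1, with 8.26% of its peaks on this chromosome, was the highest library in each of the 4 bins, and WT 2 the next. Without WT 1 the 4 bins gave -0.78, -0.81, -0.82 and -0.62 in the order above, against -1.01, -0.85, -0.91 and -0.99 with it. They were chosen by smallest p with WT 2 in the fit, so the values without WT 1 are no separate support. On the higher side, the first bin lay on chromosome 2 (158000001 to 159000000), which holds Tgm2, Lbp and Ppp1r16b among others. It held 44 peaks in CDC6 1, 48 in CDC6 2, 18 in WT 1, 25 in WT 2 and 31 and 36 in APH, a log2 difference of 1.26 ± 0.268 (SE; limma adjusted p = 0.998). A second bin of chromosome 2 (160000001 to 161000000), with the topoisomerase gene Top1, held 26 and 26 peaks in CDC6, 11 in WT 1 and 19 in WT 2.

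Among 3924 protein-coding genes of at least 50 kb, limma called 0 (0%) in CDC6 minus WT, with 248 at an unadjusted p under 0.05. Both CDC6 libraries were above both WT libraries at 727 genes (18.5%) and below at 569 (14.5%). Without WT 1 limma called 130 (3.46%), 119 of them higher, and without WT 2 it called 0 (0%), with 565 at an unadjusted p under 0.05. The genes with the smallest p are given as values, all with a limma adjusted p of 0.767. Zfpm1, a cofactor of GATA factors on chromosome 8, held 8 and 8 peaks in CDC6 and 3 and 3 in WT, a log2 difference of 1.29. Zswim6 held 5 and 8 against 3 and 1 (1.5), and Ift140, a gene of transport in cilia, 5 and 4 against 1 and 0 (2.04). Mbp and Fbxo36 had 1.14 and 1.36. On the other side, Nell2 held 1 and 1 peaks in CDC6 and 9 and 6 in WT (-1.91), and Fshr, the receptor of follicle-stimulating hormone, 1 and 1 against 7 and 5 (-1.65). Itpr2, a calcium release channel gene, had 2 and 2 against 10 and 6 (-1.40), Rnf180 2 and 2 against 11 and 5 (-1.35), and Csgalnact1, inside one of the chromosome 8 bins above, 4 and 6 against 20 and 12 (-1.33). The counts are of a few peaks each. The 10 genes were chosen by smallest p, which favours groups that do not overlap, so their separation is no further result.

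By chromosome, both CDC6 libraries held a larger share of their peaks than both WT libraries on 6 of 20 chromosomes and a smaller one on 3. The X chromosome held 2.24% of the peaks of CDC6 1, 2.73% of CDC6 2, 1.75% of WT 1 and 3.30% of WT 2. The CDC6 libraries again lay between the WT libraries, whereas the list held 880 X origins in CDC6 and 405 in WT, a ratio of 2.17. Dense clusters of origins were counted in windows of 100 kb. The windows with the largest excess in CDC6 lay on chromosome 4 (141000001 to 141100000, 15 CDC6 and 5 WT origins), which holds the rootletin gene Crocc, on chromosome 18 (35800001 to 35900000, 14 and 6), with Ube2d2a and Cxxc5, and on chromosome 5 (120400001 to 120500000, 6 and 0), with Lhx5. The last window held 8 peaks in CDC6 1, 12 in CDC6 2, 15 in WT 1 and 2 in WT 2. WT 1 thus had the most peaks in a window that holds no WT origin. The largest excess in WT was of 3 origins, in windows of chromosome 1 that start at 43600001, 77000001 and 150600001.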

How the data were processed

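Short nascent strands of the 4 libraries were read from the deposited peak lists. The submitters' processing notes name MACS2 2.0.10, BWA 0.7.10, bedtools 2.23.0, FastQC, Picard 1.107 and SAMtools 0.1.19, without settings, and the build mm10. The deposited MACS lists give the authors' score, ratio (fold) over 1 shared control, with −log10 values of the p-value and of the q-value, and end at a q-value of 0.1 and a width of 400 bp. The deposited origin lists carry 2 scores of unstated meaning. The authors' folds describe or rank peaks within a library alone. A second set of deposited lists, whose labels disagree with the MACS lists, was not used here.

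Overlap meant 1 bp. Gene positions came from RefSeq (GRCm38.p6) for 21627 protein-coding genes. Strand was known for 79.9% of them. Peaks per 1 Mb bin and per gene of at least 50 kb were scaled to equal totals, put on the log2(number + 1) scale and tested by limma 3.58.1 (lmFit, eBayes with trend, R 4.3.3, Benjamini-Hochberg), for features with a mean of at least 5 and 2 peaks, with the 6 libraries of all conditions in the fit. The script was tested on simulated peak numbers with counting error alone, where it recovered most changed bins and a minority of changed long genes. The spread between these libraries was not simulated, so no call among bins or long genes is weak evidence of no change. Single values per library were compared by exact permutation. Peak numbers are not read counts. Members, lists and tests were chosen with earlier results of these data known. Named genes were the strongest of each class by the rank of the weaker library, bins and long genes the 5 of smallest p per direction, and list genes up to 6 per list, those that differ between the conditions first. Alternatives covered overlap, list length, windows, filters, scaling, the replicate block and single libraries left out.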

Additional observations from a re-analysis of the deposited data

How the results depend on the processing

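With 50% of an origin covered, 41.3% of CDC6 and 65.5% of WT origins overlapped. With as many CDC6 as WT origins, by highest first score, the shares were 49.4% and 49.8%, the gene-end difference turned to 3.34 points, and 1875 and 1231 genes had an origin in CDC6 or WT alone. By the ratio of the second to the first score, an alternative chosen after seeing the data, they were 53.4%, 54.0%, -1.11 points, 1078 and 1207. Neither score is known to measure strength. Among the 20000 strongest peaks shared by both libraries, 55.1% of CDC6 and 83.0% of WT sites overlapped. Windows of 2 kb gave -5.74 points and 5′ ends alone -4.86. The ratio of site numbers was 1.34 with peaks of replicate 1 found in replicate 2 and 1.17 with peaks of −log10 q of at least 5, where the mean peak difference turned to 3262. Regions of both CDC6 libraries alone numbered 2249 among the 20000 strongest peaks, and those of both WT libraries alone 731 and, among the 40000 strongest, 1851. Without 1 library, with that condition's list replaced by as many strongest peaks of the other, CDC6 overlap ran from 39.7% to 47.1%, WT overlap from 60.0% to 70.1%, the gene-end difference from -14.7 to -0.0136 points (the latter without WT 1), and genes with an origin in CDC6 alone from 1369 to 3552 and in WT alone from 234 to 1849. The ratio, then taken over all peaks, ran from 0.815 to 0.953, which reverses it by construction, and the mean peak difference from -17519.5 to -3828.5. limma called 0 to 773 bins and 0 to 130 long genes without 1 library, with the calls made without WT 1 (773 bins, 130 genes) and without WT 2 (292 bins). Of the 20 named bins and genes, 10 passed the threshold without WT 1 and 7 without WT 2, and as they were chosen by smallest p their sign shows no stability. Where peaks replaced a list, they had a larger median width than its origins. The cause of these changes was not tested.

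limma called 0 bins and 0 long genes under all other alternatives run. With the replicate block, 42 bins and 238 genes had an unadjusted p under 0.05. Same-numbered CDC6 and WT libraries deviated together with r = 0.28 over bins and 0.03 over genes. The values were -0.29 and -0.07 for CDC6 and APH, and -0.52 and -0.17 for WT and APH. The labels tie these samples by number alone, and a shared source of the deviations was not tested. A quasi-likelihood test on peak numbers was not run because no deposited column holds read counts. Depth is unknown, so a missing peak is not a silent site.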
